A study of Homo sapiens with 18 samples.

Results

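Vesicles of ATG12-/- HEK293T cells were set against vesicles of wild type HEK293T cells, using every small RNA measured in both. This takes 6 of the 18 libraries of the series, 3 for each genotype, chosen by their labels. HEK293T is a human embryonic kidney cell line. The wild type cultures were unedited HEK293T cells, and the knockout cultures came from 1 ATG12-/- clone (D9). Both were kept 24 h without serum, and their extracellular vesicles (EVs) and the cells themselves were then collected. The 3 libraries of a group are labelled biological replicates, with nothing more on how they were separated, so p-values measure the spread between these libraries. A single clone limits the comparison, since a change caused by losing ATG12 and a trait of that clone cannot be told apart. The cells that released the vesicles, and the vesicles of 1 ATG7-/- clone (F2) starved the same way, are used beside the main comparison. The table holds no ATG12 or ATG7 mRNA, so the genotype labels could not be checked against the genes they name.

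ATG12 is a small ubiquitin-like protein that is joined to ATG5. The joined proteins act with ATG16L1, downstream of the activating enzyme ATG7, to attach LC3 and its relatives to lipids of autophagic and other membranes. Small nucleolar RNAs (snoRNAs) work in the nucleolus: C/D box snoRNAs guide methylation of ribosomal RNA, H/ACA box snoRNAs guide its pseudouridylation, and a few of both kinds act in cutting the precursor. Small Cajal body RNAs (scaRNAs) guide the same changes on spliceosomal snRNAs. Most human snoRNAs are cut from introns of host genes. Extracellular vesicles carry fragments or full lengths of such RNAs together with microRNAs, tRNA pieces and Y RNAs.

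The snoRNAs shown here are those whose vesicle levels moved furthest or moved apart from a neighbour in the same host gene. ACA28 (SNORA28) fell most, ACA16 (SNORA16A) and ACA61 (SNORA61) come from SNHG12 and moved in opposite directions, and U25 (SNORD25) and U22 (SNORD22) did so in SNHG1. The sequences are the transcripts of GENCODE release 29, on GRCh38, and each lies in an intron of its host. Capitals mark the ACA box near the 3′ end of H/ACA RNAs, and the C box (TGATGA) and D box (CTGA) of C/D RNAs where these letters were found.
ACA28, EIF5 intron, chr14:103337849-103337974, + strand: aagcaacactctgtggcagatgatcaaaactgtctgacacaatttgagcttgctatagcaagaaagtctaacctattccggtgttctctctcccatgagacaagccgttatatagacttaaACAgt
ACA16, SNHG12 intron, chr1:28580920-28581054, - strand: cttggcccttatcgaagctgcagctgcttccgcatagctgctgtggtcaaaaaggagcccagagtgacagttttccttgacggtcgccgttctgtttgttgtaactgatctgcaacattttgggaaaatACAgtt
ACA61, SNHG12 intron, chr1:28579764-28579893, - strand: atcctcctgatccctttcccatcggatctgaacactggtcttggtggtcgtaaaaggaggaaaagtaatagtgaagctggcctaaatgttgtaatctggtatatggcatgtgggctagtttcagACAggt
U25, SNHG1 intron, chr11:62855564-62855632, - strand: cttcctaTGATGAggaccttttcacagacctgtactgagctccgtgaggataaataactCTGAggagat
U22, SNHG1 intron, chr11:62852910-62853035, - strand: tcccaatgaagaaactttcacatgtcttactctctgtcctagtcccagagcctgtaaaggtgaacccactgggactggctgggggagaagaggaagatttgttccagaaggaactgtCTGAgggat

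The letters ACA, with 1 to 5 bases after them, stood at the 3′ end of 80 of the 91 tested H/ACA snoRNAs with a sequence (87.9%). Among those that were lower in ATG12-/- vesicles the share was 88.5%, among 6 that were higher 83.3%, and among those not called 87.9%. CTGA, with at most 10 bases after it, was found in 91.4% of 116 C/D snoRNAs with a sequence, and TGATGA, starting within the first 18 bases, in 71 of them (61.2%). Motifs were searched on the RNA strand only, and none of these windows overlapped another. CTGA was found in 98.3% of the C/D snoRNAs that were lower and in 82.7% of those not called, and TGATGA in 66.1% and 55.8%, differences that were not tested. In those that were higher CTGA was found in all 5 with a sequence and TGATGA in 60.0%. A sequence was at hand for 59 of 66 lower, 5 of 9 higher and 52 of 65 C/D snoRNAs not called. Lower C/D snoRNAs had a median length of 78.0 bases against 85.5 for those not called, and H/ACA snoRNAs 134.0 in both.

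Mature microRNAs are shown for the families that the results turn on, grouped by seed, bases 2 to 8, in capitals. They come from RefSeq on GRCh38.p14, which held a sequence for 90 of the 113 microRNA entries tested.
hsa-miR-221-3p: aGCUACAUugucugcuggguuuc
hsa-miR-222-3p: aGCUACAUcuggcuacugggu
hsa-miR-19a-3p: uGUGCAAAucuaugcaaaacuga
hsa-miR-19b-3p: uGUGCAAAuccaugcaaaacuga
hsa-miR-92a-3p: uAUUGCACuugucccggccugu
hsa-miR-25-3p: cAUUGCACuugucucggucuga
hsa-miR-92b-3p: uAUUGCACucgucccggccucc
hsa-let-7a-5p: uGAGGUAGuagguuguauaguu
hsa-let-7b-5p: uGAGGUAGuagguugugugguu
hsa-let-7c-5p: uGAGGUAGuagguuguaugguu

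Values are normalised reads, the reads of a feature divided by 1 size factor per library. The 9 vesicle libraries held 1881080 to 3382605 assigned reads and the 9 cell libraries 1188388 to 1804089. Every fold change is a limma estimate on log2 (normalised reads + 1), given with its standard error (SE), and a feature is called when its adjusted p is under 0.05. The values are relative within a library, so fewer vesicles and less RNA per vesicle cannot be told apart. The summed level of microRNAs abundant in HEK293T cells was 2373 to 3472 normalised reads in wild type vesicles and 4482 to 4782 in ATG12-/- vesicles, and 2080 to 3149 over the cells of both genotypes. Most of the vesicle sum was miR-92a-3p, at 1878 to 2985 in wild type and 4083 to 4275 in ATG12-/- vesicles. Of the 6 listed microRNAs that were tested, 2 were higher, 1 was lower and 3 were not called, so the list did not rise as a group. Markers of liver, muscle and neurons together stayed at or below 18.9 in the libraries of both genotypes.

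Of 850 features tested, 192 were higher (22.6%) and 179 lower (21.1%) in ATG12-/- vesicles, and 371 were called in all (43.6%). The 3 values of each genotype did not overlap for 448 features (52.7%). Many features named below were picked partly for this separation, so its mention adds no support for them. The median over all features was 0.05 on the log2 scale. SnoRNAs made up most of the lower group and tRNA genes most of the higher group. tRNA genes were also 467 of the 850 features tested, and 28.5% of them were higher, beside 22.6% over all features. The balance of directions depends on the scaling: 51.8% of calls were higher as deposited, 22.1% when libraries were scaled to their total reads, and 21.4% when scaled on microRNAs (TMM). Those scalings move the median of all features by -0.35 and -0.31, so directions below are relative to the deposited scale and are named where they depend on it.

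**Figure D1:**
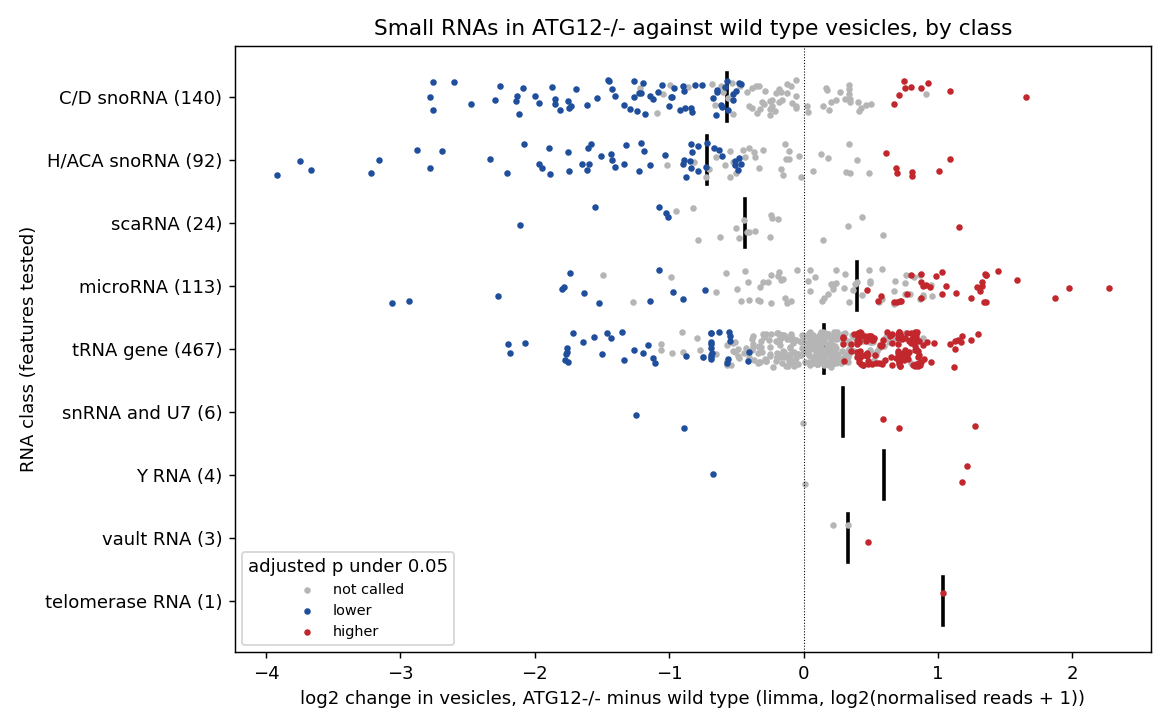
Log2 change in ATG12-/- against wild type vesicles for each tested feature (points), one line per RNA class, with the class median as a black bar and the number tested in brackets. The medians of C/D snoRNAs (-0.57), H/ACA snoRNAs (-0.72) and scaRNAs (-0.43) lie left of 0, and those of microRNAs (0.40) and tRNA genes (0.15) right of it.

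H/ACA snoRNAs had the lowest median among classes with more than 1 member tested. Of 92 tested, 52 were lower and 7 higher, with a median of -0.72. The counts were 67 and 3 with library totals as scaling, and 62 and 2 with factors from microRNAs. C/D snoRNAs gave 66 lower and 9 higher of 140, with a median of -0.57, and scaRNAs 5 lower and 1 higher of 24, with a median of -0.43. Against the background of 21.1% lower, the lower shares were 56.5%, 47.1% and 20.8%, so scaRNAs were called lower about as often as features in general. With library totals 14 of 24 scaRNAs were lower, and with microRNA factors 13.

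ACA28, an intronic H/ACA snoRNA of EIF5, was at 441, 618 and 680 normalised reads in the 3 wild type vesicle libraries and at 38.6, 35.8 and 35.8 in the ATG12-/- ones. The groups were far apart, and the change was -3.92 (SE 0.21, limma adjusted p 4.5e-08). In the cells the same RNA was at 221.7, 260 and 242 in wild type and at 274, 245 and 266 in ATG12-/-. The cell values overlapped, with a change of 0.12 (SE 0.15), and the test of the difference between the vesicle and the cell change gave -4.04 (SE 0.26, limma adjusted p 5.3e-10).

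U72 (SNORA72), hosted by the ribosomal protein gene RPL30, was at 1847, 1641 and 2028 in wild type and at 150, 146 and 136 in ATG12-/- vesicles, a change of -3.66 (SE 0.19, limma adjusted p 4.5e-08). ACA62 (SNORA50C), from SNHG25, was at 2340, 1537 and 1949 against 199, 194 and 224, a change of -3.22 (SE 0.18, limma adjusted p 4.5e-08). Neither group of values came near the other, and the cells changed by -0.11 and -0.29, which was not called. ACA5c, ACA50, ACA37 and ACA31 fell by between 2.69 and 3.74 in the vesicles and were not called in the cells. The ACA5c estimate rests on few reads: it was at 1.38, 0 and 7.54 in ATG12-/- vesicles, and its change was -3.02 without ATG12-/- library 2 and -4.57 without library 3.

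Among C/D snoRNAs, U8 (SNORD118), which acts in processing of the large-subunit ribosomal RNA, was the most reduced. It was at 11080, 7263 and 8549 in wild type vesicles and at 1248, 1256 and 1361 in ATG12-/- vesicles, a change of -2.78 (SE 0.20, limma adjusted p 7.8e-07). U8 was lower in the cells as well, with a change of -0.59 (SE 0.13, limma adjusted p 0.0053), and the test of the difference gave -2.19 (SE 0.25). U101 (SNORD101) from RPS12 and U94 (SNORD94) from PTCD3 each changed by -2.75 in the vesicles. U101 changed by -0.02 and U94 by -0.41 in the cells, neither of them called.

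Of 17 tested snoRNAs that act in cutting the ribosomal RNA precursor, U8 among them, 4 were lower (23.5%) and 3 higher (17.6%), near the 21.1% and 22.6% over all features. Their median was 0.03, with copies averaged 3 of 8 were lower and 1 higher, and with library totals or microRNA factors 8 of 17 were lower and 1 higher. U3, which leads the early cuts and was the most abundant snoRNA of the vesicles, was at 148976, 102482 and 105434 against 135776, 143021 and 170920 normalised reads. The groups overlapped, with a change of 0.35 (SE 0.16, limma adjusted p 0.10). Among the alternatives tried, it passed the threshold only in the fit without wild type library 1, where the change was 0.52 (limma adjusted p 0.0094). The 5 tested copies of U3 hold nearly the same reads and took 20.1% ± 2.90 of the reads in wild type and 19.8% ± 1.17 in ATG12-/- vesicles (SD, n = 3 each). All other C/D snoRNAs together took 2.09% ± 0.152 and 1.20% ± 0.0317.

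U22, also a precursor-cutting snoRNA, was the C/D snoRNA with the largest rise. It was at 3505, 2902 and 2714 in wild type and at 8257, 9218 and 11359 in ATG12-/- vesicles, a change of 1.66 (SE 0.18, limma adjusted p 1.8e-05). In the cells it was at 227.4, 278 and 197 against 152, 94.9 and 70.6, a change of -1.20 (SE 0.26, limma adjusted p 0.0053). The vesicle groups and the cell groups each stood apart, in opposite directions, and the difference was 2.85 (SE 0.34, limma adjusted p 6.8e-06). It was the only snoRNA or scaRNA called in opposite directions in vesicles and cells.

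**Figure D2:**
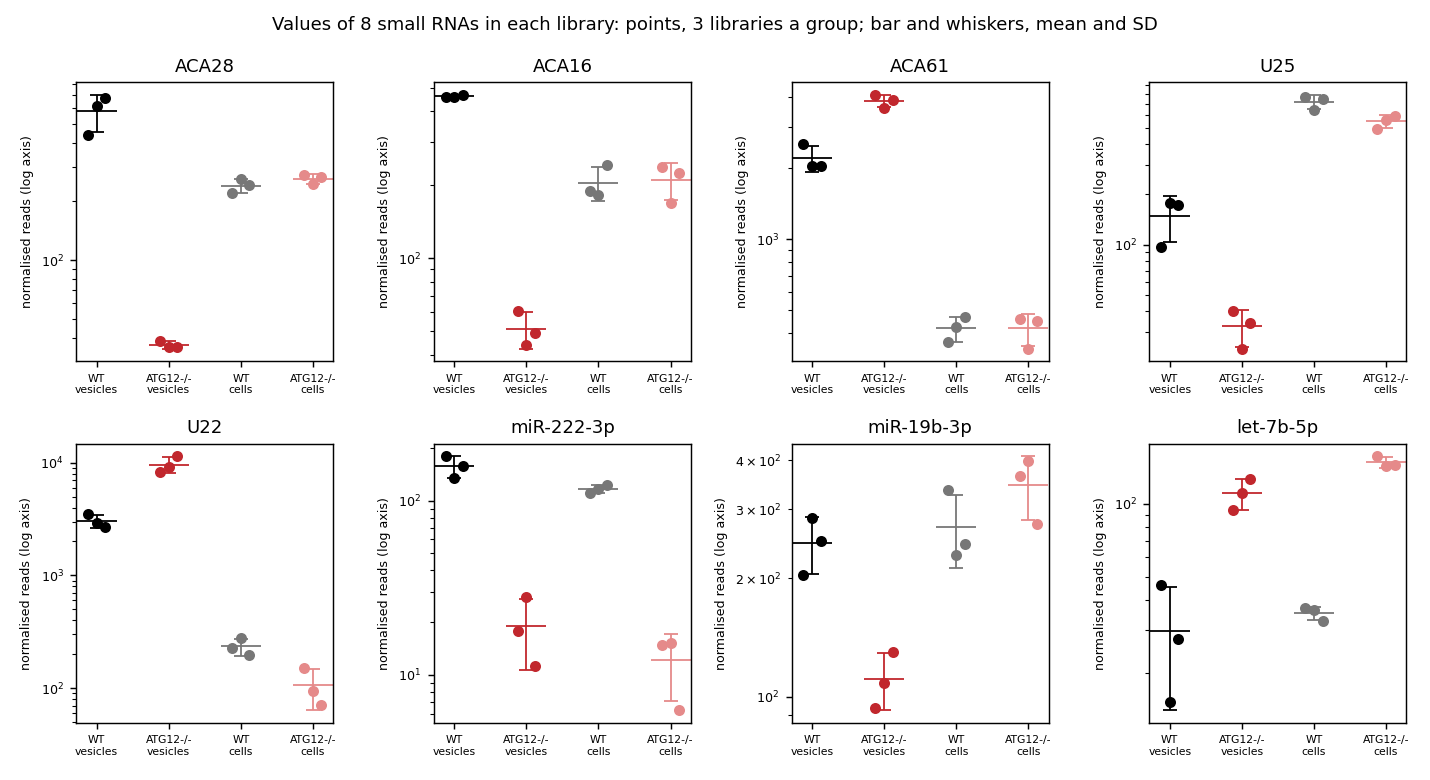
Normalised reads (log axes, which differ between panels) of 8 small RNAs in the 3 libraries of each group, with mean and SD. ACA28 and ACA16 separate the vesicle groups and not the cell groups, U22 separates them in opposite directions, and miR-222-3p and let-7b-5p separate vesicles and cells alike.

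Members of one host gene could differ in direction. Of 54 host genes with 2 or more tested snoRNAs or scaRNAs, 37 had members called lower and none higher, 4 had members called higher and none lower, 9 had none called, and 4 had both. Those 4 were SNHG12, SNHG1, TAF1D and GAS5. With library totals as scaling 2 hosts had both, SNHG1 and SNHG12, and with microRNA factors also 2, SNHG1 and GAS5. Over all 256 tested snoRNAs and scaRNAs 48% were lower and 6.64% higher, beside 21.1% and 22.6% over all features. Whether the counts of hosts depart from what these shares give was not tested. RNAs of one host transcript share its transcription, and each is released by trimming its own intron.

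In SNHG12, 2 of 4 members were lower (50%) and 2 higher (50%). Over all snoRNAs and scaRNAs these shares were 48% and 6.64%, and over all features 21.1% and 22.6%. ACA16 was at 460, 456 and 467 in wild type vesicles and at 60.7, 43.8 and 49.0 in ATG12-/- vesicles, a change of -3.16 (SE 0.34, limma adjusted p 1.8e-05). ACA61 was at 2544, 2046 and 2056 against 4084, 3620 and 3881, a change of 0.81 (SE 0.15, limma adjusted p 0.00062). Neither pair of groups overlapped. In the cells both stayed near 0, at 0.03 and -0.01. The rise of ACA61 relative to cells, 0.81, was called over all 18 libraries but lost its call in 7 of the 12 fits that left out 1 library, in which it lay between 0.68 and 0.81. It was also not called with library totals (0.23, limma adjusted p 0.504), with TMM factors (0.62, limma adjusted p 0.0894) or in edgeR (0.49, adjusted p 0.1503). Its rise in vesicles kept its sign but not its call when scaled on microRNAs (0.49, limma adjusted p 0.051).

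In SNHG1, 4 of 8 members were lower (50%) and U22 alone was higher (12.5%). Over all C/D snoRNAs these shares were 47.1% and 6.43%, and over all features 21.1% and 22.6%. U25 was at 96.8, 177 and 174 in wild type and at 40.0, 23.9 and 33.9 in ATG12-/- vesicles, a change of -2.14 (SE 0.33, limma adjusted p 0.00022). In the cells 7 of the 8 were lower, U22 among them, beside 70 of 140 C/D snoRNAs. In TAF1D, 5 of 6 H/ACA snoRNAs were lower (83.3%), led by ACA18 at -1.58 (SE 0.19). ACA40 was higher at 0.80 (SE 0.18), and none of the 6 was called in the cells. Over all H/ACA snoRNAs 56.5% were lower and 7.61% higher in vesicles. ACA40 was at 773, 962 and 991 in wild type and at 1832, 1516 and 1414 in ATG12-/- vesicles, but it was not called with library totals (0.45) or microRNA factors (0.49) as scaling.

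GAS5 carried 10 tested C/D snoRNAs, of which 4 were lower (40%) and 2 higher (20%). Over all C/D snoRNAs these shares were 47.1% and 6.43%, and over all features 21.1% and 22.6%. With library totals 8 of the 10 were lower and none higher, and with microRNA factors 7 and 1. U74 was at 2170, 2375 and 2079 in wild type vesicles and at 793, 770 and 854 in ATG12-/- vesicles, a change of -1.45 (SE 0.15, limma adjusted p 1.5e-05). U76 was at 646, 303 and 394 against 800, 743 and 801, a change of 0.87 (SE 0.23, limma adjusted p 0.0070), and was not called with library totals as scaling (0.52). All 4 snoRNAs of the ribosomal protein gene RPL13A were lower, led by U35A at -1.97 (SE 0.23). Over the 37 C/D snoRNAs hosted by ribosomal protein genes, 25 were lower (67.6%) and none higher in the vesicles, and 23 were lower and none higher in the cells. Under the other scalings 22 to 32 were lower in the vesicles and 11 to 30 in the cells, with none higher.

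**Figure D3:**
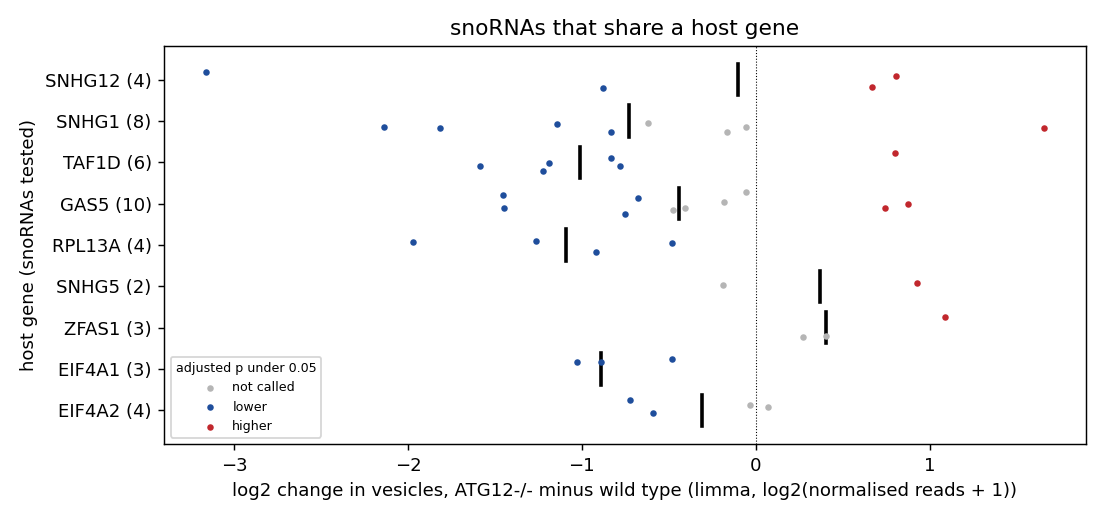
Log2 change in ATG12-/- against wild type vesicles of the tested snoRNAs of 9 host genes (points), with the median of each host as a black bar. SNHG12, SNHG1, TAF1D and GAS5 have members called on both sides of 0, while all 4 of RPL13A lie to the left.

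The cells that released the vesicles were compared in the same way. Of 853 features tested in cells, 64 were higher (7.50%) and 155 lower (18.2%), 219 in all (25.7%). Leaving out 1 library left 96 calls without wild type library 1, 116 and 150 without wild type libraries 2 and 3, and 119, 134 and 129 without ATG12-/- libraries 1, 2 and 3. The split depends on the scaling: 29.2% of calls were higher as deposited, 62.7% with library totals, 52.2% with TMM factors and 6.47% with microRNA factors. C/D snoRNAs were lower in the cells for 70 of 140 and higher for none, with a median of -0.50, while H/ACA snoRNAs were lower for 11 of 92, with a median of -0.19. Under the other scalings, 37 to 104 C/D and 1 to 26 H/ACA snoRNAs were lower in the cells, and at most 1 was higher.

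The difference between the vesicle and the cell change was tested for 905 features, of which 130 were higher (14.4%) and 109 lower (12.0%). It was called lower for 35 of 92 H/ACA and 32 of 140 C/D snoRNAs, and higher for 10 and 17. The medians of the difference were -0.52 for H/ACA and 0.02 for C/D snoRNAs. Vesicles and cells were scaled together for this test, and 54.4% of its calls were higher as deposited, 6.32% with library totals, 32.4% with TMM factors and 58.1% with microRNA factors. The median of H/ACA snoRNAs stayed below 0 under each of these, between -1.07 and -0.45, and that of C/D snoRNAs lay between -0.55 and 0.08. Of the 179 features lower in vesicles, 61 were lower in cells too, 114 were not called there and 4 were not tested. Of the 192 higher in vesicles, 31 were higher in cells and 15 were lower. Those 15 were 14 tRNA genes, 10 of them for valine, and U22. Across the 801 features tested in both, Pearson's r between the changes was 0.36, from 6 vesicle and 6 cell libraries with no library in common. It was -0.19 over the 92 H/ACA snoRNAs and 0.13 over the 140 C/D snoRNAs.

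**Figure D4:**
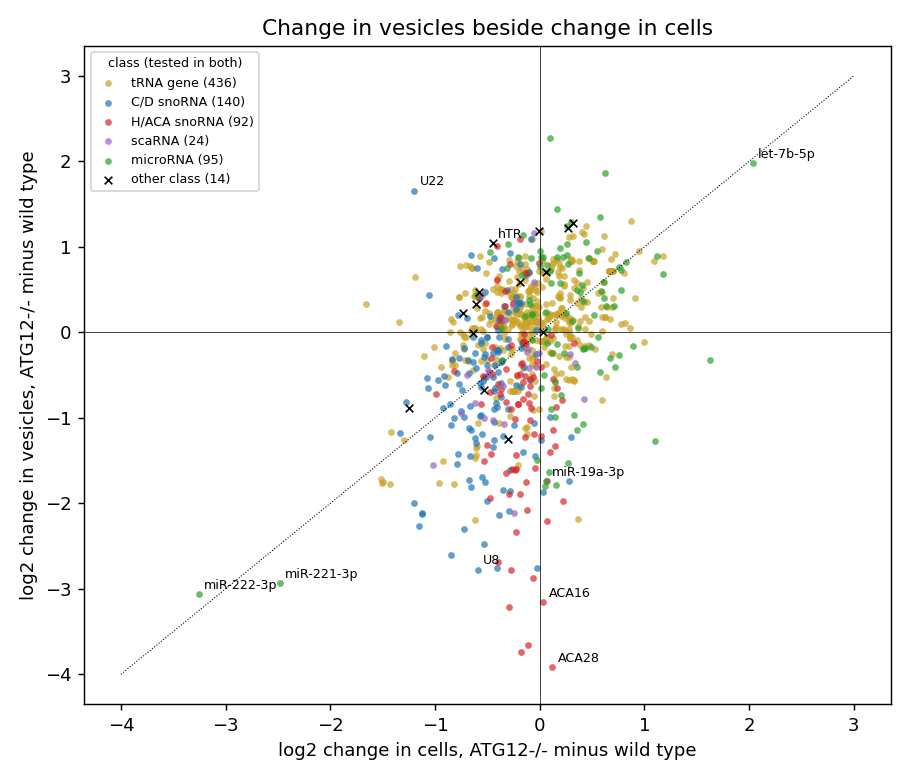
Log2 change in vesicles (vertical) beside log2 change in cells (horizontal), ATG12-/- minus wild type, for 801 features tested in both; the dotted line marks equal change. miR-221-3p, miR-222-3p and let-7b-5p lie close to that line, H/ACA snoRNAs such as ACA28 and ACA16 lie far below it near 0 in cells, and U22 lies at 1.66 in vesicles and -1.20 in cells.

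Of 113 microRNA entries tested, 35 were higher (31%) and 13 lower (11.5%), with a median of 0.40. Among the 35 are 6 entries, both arms of miR-4664, miR-937 and miR-6845, whose values differed by at most 0.073 on the log2 scale within any vesicle library, so they count as 1 signal. The median was 0.03 with library totals and 0.05 with microRNA factors as scaling. The largest falls were in miR-222-3p and miR-221-3p, a pair of neighbours on the X chromosome that share a seed and are known to target the cell cycle inhibitor CDKN1B. miR-222-3p was at 179, 136 and 158 in wild type vesicles and at 17.9, 27.8 and 11.3 in ATG12-/- vesicles, a change of -3.06 (SE 0.26, limma adjusted p 4.1e-06). In the cells it was at 111, 117 and 123 against 14.8, 15.3 and 6.29, a change of -3.25 (SE 0.27). Vesicles and cells each separated the genotypes, and the difference between their changes was 0.19 (SE 0.41, limma adjusted p 0.76). miR-221-3p changed by -2.93 (SE 0.29) in vesicles and by -2.48 in cells.

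Of 6 let-7 microRNAs, which repress growth genes such as LIN28 and RAS, 3 were higher (50%) and none lower. Over all microRNA entries 31% were higher, and over all features 22.6%. In edgeR, in DESeq2 and under each other scaling 2 of the 6 were higher. let-7b-5p was at 46.3, 15.2 and 27.7 in wild type vesicles and at 93.8, 110 and 126 in ATG12-/- vesicles, a change of 1.98 (SE 0.31, limma adjusted p 0.00023), beside 2.03 in the cells. let-7a-5p was at 821, 518 and 569 against 1332, 1094 and 1062, a change of 0.89 (SE 0.17), beside 1.12 in the cells. The groups of both stood apart in vesicles. let-7c-5p was called at 0.72 (limma adjusted p 0.043), but its groups overlapped and the call was lost in 4 of 6 fits without 1 library, in edgeR (adjusted p 0.063) and in DESeq2 (adjusted p 0.084). The 5p arms of let-7e, let-7f and let-7g were not called, at -0.14, -0.17 and -0.58, though let-7f-5p was called lower with library totals as scaling (-0.52).

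The miR-17-92 cluster and its paralogs, a set of microRNAs made from shared transcripts and known for promoting growth, had 3 of 10 tested higher and 2 lower, shares near the 22.6% and 21.1% over all features. Both miR-19 members fell: miR-19b-3p was at 204, 285 and 249 in wild type vesicles and at 93.8, 109 and 130 in ATG12-/- vesicles, a change of -1.14 (SE 0.22, limma adjusted p 0.0011). miR-19a-3p changed by -1.74 (SE 0.38). miR-92a-3p, processed from the same cluster, was at 2985, 1878 and 2059 against 4083, 4095 and 4275, a change of 0.88 (SE 0.15, limma adjusted p 0.00038). The genotypes did not overlap for any of these 3. In the cells miR-19a, miR-19b and miR-92a 3p arms changed by 0.06, 0.36 and 0.16, none of them called, and the difference between vesicles and cells was called lower for both miR-19 members and higher for miR-92a-3p. All 3 tested members of the miR-92a seed group, miR-92a, miR-25 and miR-92b, were higher, by 0.80 to 1.03, the last 2 being named after their values were seen.

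Only the 90 of 113 tested microRNA entries with a mature sequence could be placed, and 4 of them lay on snoRNA or scaRNA genes. Entries without a sequence may lie on such genes too and are not covered here. These 4, 2 of them on the same gene, were all lower in vesicles. None was called in cells, and the difference was called lower for all 4. Over all microRNA entries 11.5% were lower in vesicles, and over all features 21.1%. The difference was called lower for 12.0% of all features. miR-664b-3p, on SNORA36A, changed by -1.63 (SE 0.27), and the snoRNA itself (ACA36) by -1.21 (SE 0.25). miR-664a-3p, on SNORA36B, changed by -1.52 and that snoRNA (ACA36B) by -1.40. miR-664a-3p and both snoRNAs were named after their values were seen. The other 2 entries, both arms of miR-6516 on SCARNA16, changed by -0.97 and -0.73, and that scaRNA (ACA47) was not called at -0.25. miR-6724-5p, annotated in ribosomal RNA repeats, took 14.7% ± 2.63 of the reads in wild type and 6.11% ± 0.545 in ATG12-/- vesicles (SD, n = 3 each), a change of -0.90 (SE 0.16, limma adjusted p 0.00064). miR-4485-3p, placed within a nuclear gene that resembles mitochondrial ribosomal RNA (MTRNR2L8), changed by -1.78 (SE 0.33) in vesicles and 0.15 in cells.

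Of 3 blood cell microRNAs tested, 2 were higher in ATG12-/- vesicles (66.7%) and none was lower, and all 3 were nearly absent from the cells. Over all microRNA entries 31% were higher, and over all features 22.6%. miR-486-5p, a red cell microRNA, was at 56.4, 58.1 and 48.1 in wild type and at 193, 151 and 153 in ATG12-/- vesicles, a change of 1.59 (SE 0.21, limma adjusted p 6.7e-05). miR-150-5p, of lymphocytes, changed by 1.31 (SE 0.25), and miR-223-3p, of myeloid cells, was not called at 0.56. The listed blood microRNAs summed to 87.5 to 129 normalised reads in wild type vesicles, 248 to 324 in ATG12-/- vesicles and 1.27 to 5.94 in the cells of both genotypes. miR-223-3p was at 0 in all 6 of those cell libraries. Both arms of miR-144 and of miR-142, listed but not tested, stayed at or below 6.89 in the vesicle libraries of both genotypes. The part of blood or serum RNA in the vesicle results was not tested.

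tRNA genes were the largest class, with 133 of 467 higher (28.5%) and 40 lower (8.57%) and a median of 0.15. Over all features these shares were 22.6% and 21.1%. With each mature tRNA counted once, 80 of 304 were higher and 23 lower. Their direction depends on the scaling: the median was -0.19 with library totals and -0.15 with microRNA factors, with 51 higher and 103 lower, and 35 higher and 57 lower. Copies of a tRNA share reads, and which part of the tRNA the reads cover is not given. tRNA took 50.0% ± 6.01 of reads in wild type and 58.8% ± 2.15 in ATG12-/- vesicles (SD, n = 3 each).

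Isotypes differed in their counts. Glutamate tRNAs, the most abundant of the vesicles, were higher for 19 of 26 genes (73.1%) and lower for none, with a median of 0.61. Over all tRNA genes 28.5% were higher, and over all features 22.6%. The copy with the highest level, tRNA-Glu-CTC-1-2, was at 107969, 116974 and 108111 against 175664, 182100 and 188094 normalised reads, a change of 0.71 (SE 0.08, limma adjusted p 2.8e-05), beside 0.66 in the cells. The groups did not overlap. With microRNA factors the change was 0.40 and was not called, and none of the 26 glutamate genes was called, while 9 were higher with library totals. Glycine tRNAs were higher for 18 of 33 (54.5%) and proline tRNAs for 15 of 21 (71.4%), with none lower. With library totals these counts were 10 (and 1 lower) and 3, and with microRNA factors 10 and 4. With copies averaged, 12 of 18 glutamate, 8 of 18 glycine and 6 of 8 proline tRNAs were higher and none lower. Among glycine tRNAs, 11 of 13 genes with the GCC anticodon were higher and none of 9 with TCC was called. The 13 GCC genes carry 4 mature tRNA names, and the 9 TCC genes also 4.

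Valine tRNAs differed between vesicles and cells. Of 32 tested, 22 were higher (68.8%) and none lower in vesicles, whereas 12 were lower and none higher in cells. All 12 had the CAC anticodon. Over all tRNA genes 28.5% were higher in vesicles, and over all features 22.6%. In the cells 56 of 436 tRNA genes were lower, and 18.2% of all features. With copies averaged 14 of 22 valine tRNAs were higher in vesicles and none lower. Under the other scalings 4 to 15 valine genes were lower in cells and none higher. The difference was called higher for 21 and lower for none, and for 5 to 20 and none under the other scalings. Over all features it was called higher for 14.4%. The rise within vesicles is less firm: 6 were higher and 2 lower with library totals, and 1 was higher with microRNA factors. tRNA-Val-AAC-2-1 was at 351, 329 and 331 in wild type and at 718, 650 and 796 in ATG12-/- vesicles, a change of 1.09 (SE 0.12, limma adjusted p 1.9e-05), with no overlap. It changed by -0.07 in the cells.

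Histidine tRNAs were the isotype with every gene lower. All 10 genes tested, which carry 2 mature tRNA names, were lower in vesicles, with a median of -0.69, and none was called among the 9 tested in cells. Over all tRNA genes 8.57% were lower in vesicles, and over all features 21.1%. All 10 histidine genes were lower under each scaling. The difference between vesicles and cells was called for none of the 10 as deposited (median -0.43), with microRNA factors or in DESeq2. It was called for 4 with TMM factors, 9 in edgeR and 10 with library totals, all lower. tRNA-His-GTG-2-1 was at 75.2, 137 and 130 in wild type and at 52.4, 59.7 and 67.9 in ATG12-/- vesicles, a change of -0.87 (SE 0.22, limma adjusted p 0.0054). Of 46 alanine tRNA genes 12 were lower (26.1%) and 7 higher (15.2%), beside 21.1% and 22.6% over all features, and all 12 lower ones had the AGC anticodon. The lowest, tRNA-Ala-AGC-chr6-96, was at 52.0, 99.5 and 74.4 against 13.8, 14.6 and 16.97, a change of -2.20 (SE 0.25, limma adjusted p 2.6e-05).

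**Figure D5:**
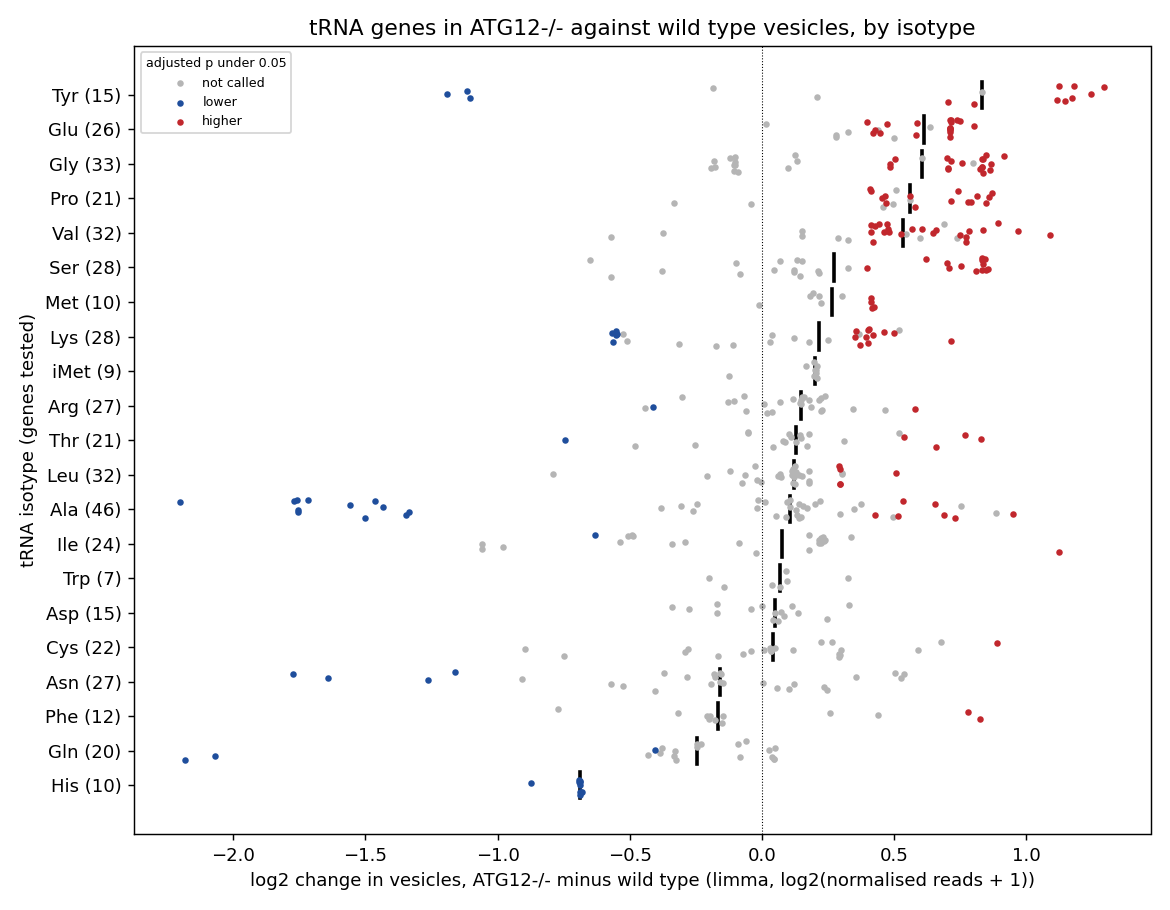
Log2 change in ATG12-/- against wild type vesicles of tested tRNA genes (points) by isotype, with the median of each as a black bar, for isotypes with at least 5 tested genes. Tyrosine, glutamate, glycine, proline and valine genes have medians of 0.54 to 0.83, all 10 histidine genes lie left of 0, and 12 of 46 alanine genes were called lower.

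Small RNAs of other machines changed one by one. Of the spliceosomal snRNAs, U6 was at 16194, 10912 and 13857 in wild type and at 33222, 30192 and 34893 in ATG12-/- vesicles, a change of 1.28 (SE 0.16, limma adjusted p 4.4e-05). U1 changed by 0.71 (SE 0.13) and U2 by 0.59 (SE 0.14), and both lost their call with microRNA factors as scaling. U2 was also not called with library totals (0.23, limma adjusted p 0.1395). U5 fell, by -1.24 (SE 0.16), and U4 was not called at -0.01. U7, which acts in the maturation of histone mRNA, was lower in vesicles at -0.89 (SE 0.22) and in cells at -1.25.

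Y RNAs, which bind the Ro60 protein, also separated by member. RNY3 was at 6655, 5919 and 4933 in wild type and at 13378, 13430 and 13559 in ATG12-/- vesicles, a change of 1.22 (SE 0.12, limma adjusted p 1.4e-05), and RNY1 changed by 1.18 (SE 0.13). RNY5 was at 24104, 32372 and 28757 against 16485, 18220 and 18468, a change of -0.67 (SE 0.12, limma adjusted p 0.00062). None of these groups overlapped. RNY4, the remaining member, was not called at 0.01, but was lower with library totals as scaling (-0.35, limma adjusted p 0.03873), and none of the 4 was called in the cells. The telomerase RNA was at 1145, 831 and 877 against 1860, 1940 and 2010, a change of 1.04 (SE 0.19, limma adjusted p 0.00063), beside -0.45 in the cells. The vault RNA VTRNA1-1 changed by 0.48 (SE 0.13) and was not called with library totals or microRNA factors as scaling.

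As shares of reads, microRNAs went from 15.05% ± 2.67 to 6.501% ± 0.541, H/ACA snoRNAs from 2.84% ± 0.115 to 1.92% ± 0.193 and spliceosomal snRNAs from 8.11% ± 0.534 to 10.3% ± 0.723 (SD, n = 3 each). The fall of the microRNA share is that of miR-6724-5p: all other microRNA entries together took 0.335% ± 0.0333 in wild type and 0.391% ± 0.00489 in ATG12-/- vesicles. For the 3 classes the groups did not overlap, and the two-sided exact permutation p was 0.1, the smallest that 3 against 3 libraries allow (adjusted p 0.143 over 10 classes). C/D snoRNAs, most of whose reads were U3, took 22.2% ± 3.05 and 21.0% ± 1.15, which overlapped (exact permutation p 0.7).

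The ATG12-/- vesicles were last set directly against the ATG7-/- vesicles, a contrast that leaves out the wild type libraries both knockouts share as control. Of 850 features, 226 were higher (26.6%) and 198 lower (23.3%) in ATG12-/- vesicles, 424 in all (49.9%). SnoRNAs were higher in ATG12-/- than in ATG7-/- vesicles for 81 of 92 H/ACA and 98 of 140 C/D members, and lower for none. Each scaling gave at least 73 and 90 higher and DESeq2 gave 71 and 94, with none lower. tRNA genes were lower for 188 of 467 and higher for 11. Against wild type vesicles, the medians of ATG12-/- and ATG7-/- were -0.72 and -1.96 for H/ACA snoRNAs and 0.15 and 0.47 for tRNA genes.

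Single RNAs differed in more than size. ACA61 was higher by 3.12 in ATG12-/- than in ATG7-/- vesicles, having changed by 0.81 and by -2.31 against wild type. U50, from SNHG5, was at 2099, 1528 and 1619 in wild type and at 3386, 3139 and 3371 in ATG12-/- vesicles, a change of 0.93 (SE 0.16), beside -1.22 in ATG7-/- vesicles. miR-222-3p was lower by 3.04 in ATG12-/- than in ATG7-/- vesicles, having changed by -3.06 and by -0.02 against wild type. Histidine tRNAs were lower in ATG12-/- than in ATG7-/- vesicles for all 10 genes. ACA28 differed by 0.60 (limma adjusted p 0.033), having changed by -3.92 and by -4.52. That call was lost in 5 of the 6 fits without 1 of those libraries, where the difference was 0.43 to 0.63.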

How the data were processed

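The deposited table holds a scaled signal, which the authors made by dividing the reads of each of 2462 features by a size factor. The submitters' processing notes name Bowtie2 2.3, cutadapt 2.3, DESeq2 and bedtools, and the builds GRCh38 and hg38. The annotation, and how reads matching several copies were counted, are not given in the sources used here. In each library 100% of values were whole multiples of the smallest one (tolerance 1e-06), so whole reads were recovered. On these reads edgeR 4.0.16 called 188 features higher and 187 lower, and DESeq2 1.42.0 called 172 and 199. The main test was limma 3.58.1 (R 4.3.3, intensity trend) on log2 (value + 1), two-sided, over features that reached 10 in at least 3 fitted libraries. Vesicle fits used 9 vesicle libraries, cell fits 9 cell libraries, and their difference all 18, each adjusted by Benjamini-Hochberg across its whole table. Class shares were compared by exact permutation. Replicate pairs differed by 5.56 to 91.4 times counting noise, so none was a copy of another. Among wild type vesicles the 2 pairs with library 1 gave 91.4 and 55.1, and libraries 2 and 3 gave 8.16. tRNA took 43.3% of the reads of that library 1, and 54.7% and 52.2% of libraries 2 and 3. Counting noise understates the error, since PCR copies are not independent molecules. The test code was checked on simulated reads.

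The features and lists were chosen with earlier results of these data known. Named features are the 15 largest called changes without overlap in each direction, the largest called change of each list, fixed names, the 10 most abundant features, and the 5 largest changes in each direction of the 2 tests of a difference. Alternatives were other scalings, count tests, pseudocounts, filters, a replicate block, copies averaged and each library left out. Counts within lists and host genes under other scalings were chosen after seeing the data.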

Additional observations from a re-analysis of the deposited data

Results flagged for a closer look

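Vesicle changes that differed from the cell changes, by the limma test of the difference over all 18 libraries, came first from H/ACA snoRNAs. On the log2 scale the difference was -4.04 for ACA28, -3.57 for ACA5c, -3.55 for U72, -3.19 for ACA16 and -2.93 for ACA62. It was -2.82 for ACA50, -2.51 for ACA37, -2.30 for ACA31 and -1.0 for ACA38, and it was 0.81 for ACA61, in the other direction. Among C/D snoRNAs it was -2.73 for U101, -2.35 for U94, -2.19 for U8, -1.94 for U73a and -1.76 for U38B, and 2.85 for U22. Among tRNA genes it was -1.58 for tRNA-Ala-AGC-chr6-96 and 1.84 for tRNA-SeC-TCA-1-1, the last not called with library totals (1.26, limma adjusted p 0.0503).

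MicroRNA entries with such a difference were hsa-miR-4485-3p at -1.93, hsa-miR-486-5p at 2.19, hsa-let-7d-3p at 2.17 and hsa-miR-877-5p at 1.28. hsa-miR-877-5p was not called with library totals (0.68, limma adjusted p 0.106). hsa-let-7d-3p was not called with library totals (1.39, limma adjusted p 0.113), TMM factors (adjusted p 0.0642), the replicate block (adjusted p 0.0511) or in edgeR (adjusted p 0.0725). The entries hsa-miR-937-5p (1.85), hsa-miR-937-3p (1.63), hsa-miR-6845-3p (1.60) and hsa-miR-6845-5p (1.36) have nearly the same values in every vesicle library and are 1 signal, not 4. They rest on 0 to 3 reads in each cell library, and edgeR on whole reads did not call any of these 4. Leaving out 1 library ended the call in 10 of 12 fits for hsa-miR-6845-5p, in 8 each for hsa-miR-937-3p and hsa-let-7d-3p, in 7 for ACA61 and in 5 for hsa-miR-6845-3p.

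ATG12-/- and ATG7-/- vesicles differed, by the limma test of that contrast, by 3.12 for ACA61, 2.50 for snR38A, 2.41 for hsa-miR-4485-3p, 2.35 for ACA38 and 2.25 for HBI-61, all higher in ATG12-/- vesicles. They differed by -3.04 for hsa-miR-222-3p, -2.59 for tRNA-Ala-AGC-chr6-96, -2.57 for tRNA-Ile-GAT-1-2, -2.55 for hsa-miR-221-3p and -1.90 for tRNA-Cys-GCA-11-1, all lower in ATG12-/- vesicles.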

How the results depend on the processing

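Scaling changed the counts most. With library totals 87 features were higher and 307 lower, and with factors from microRNAs 66 were higher. RNY4 turned from 0.01 to -0.348 with library totals. Depth limits the weakest features, since 1 read was worth up to 1.89 normalised reads in vesicles. Among the other alternatives, apart from those leaving out a library, the vesicle counts in each direction and the totals of the other comparisons stayed within 1.5 times, but their directions did not. Vesicle minus cell gave 130 higher and 109 lower as deposited and 52 and 200 in edgeR, and cells gave 64 and 155 as deposited and 97 and 85 in edgeR, while DESeq2 had 49.3% of its 205 cell calls higher. Leaving out 1 library gave 146 to 215 features higher and 158 to 197 lower in vesicles, 96 to 150 called in cells, 178 to 279 called for vesicle minus cell and 325 to 379 against ATG7-/- vesicles. The cause was not tested.

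The difference in the share of reads (percentage points, ATG12-/- minus wild type vesicles) changed with how reads were summed. With copies averaged it was -1.29 for H/ACA snoRNAs, -0.0970 for scaRNAs, 6.72 for snRNAs and -14.9 for microRNAs. Without miR-6724-5p it was -1.29, -0.0786, 1.48 and 0.0227, the last of opposite sign because that entry holds most microRNA reads. Leaving out 1 library gave -2.35 to 0.532 for C/D snoRNAs, the last without wild type library 1, -1.02 to -0.824 for H/ACA snoRNAs, -9.73 to -7.10 for microRNAs, -0.0650 to -0.0554 for scaRNAs, 1.85 to 2.57 for snRNAs and 5.35 to 11.1 for tRNA.

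The libraries share only a replicate number. Between the wild type and ATG12-/- vesicle libraries, same-numbered pairs correlated at 0.089, -0.028 and 0.0079, and 0 of these exceeded 0.1. With the replicate number as a block, 178 features were higher and 173 lower, 194 were called in cells, 229 for vesicle minus cell and 374 against ATG7-/- vesicles.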
